A study of Homo sapiens with 12 samples.

Results

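The data concern open chromatin around 6 integrin genes and MERTK, which serve cell adhesion and the uptake of shed photoreceptor tips, in a retinal and a stem cell line. The members are the ATAC-seq peaks within 50 kb of ITGAV, ITGB5, MERTK, ITGB1, ITGA2, ITGA6 or ITGA5, each taken as a fixed interval on hg19. Every peak in these windows was taken, whatever its height. There were 158 such peaks among the 170706 of the 6 deposited lists, and they fell into 74 of the 84659 regions that all nuclear peaks merge into. ATAC-seq marks chromatin that the Tn5 transposase can reach, and a peak is a stretch where its insertions pile up over the background. The 3 ARPE-19 libraries come from a line of retinal pigment epithelial cells grown with fetal bovine serum, and the 3 H7 libraries from a line of embryonic stem cells grown in mTeSR Plus. Each library was made from 500000 cells. Each group is a single cell line, so a difference between the groups is one between these 2 lines. Both names rest on the labels here, because genes that mark either cell type could not be placed on hg19. The labels speak of triplicates without saying that the cultures were separate, so p-values here measure the spread between libraries only.

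Integrins are receptors made of an alpha and a beta subunit that tie the cell to the extracellular matrix. ITGB1 encodes the beta subunit that many of them share: with the product of ITGA2 it binds collagen, with that of ITGA5 fibronectin, and with that of ITGA6 laminin. In the retinal pigment epithelium the receptor made of the ITGAV and ITGB5 products binds shed tips of photoreceptor outer segments, and the receptor tyrosine kinase MERTK then drives their ingestion. Human stem cells in culture also attach to laminin and vitronectin through integrins.

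Promoter sequences are shown for 4 of the genes, because they cover the different kinds of start that were met. ITGAV had a peak over its start in both lines, ITGA2 in an H7 library alone, ITGA5 in an ARPE-19 library alone, as ITGB1 also had, and MERTK had none in any library. The RefSeq promoter table, which held all 7 genes, is on GRCh38.p14 and not on the build of the peaks, so its coordinates cannot be set against the peak positions given further on. Each run goes from 250 bases before the first annotated start to 10 bases after it, 5′ to 3′ on the strand of the gene, and capitals mark the matches to the motifs named in the next paragraph.
ITGAV promoter, chr2:186589806-186590065, plus strand: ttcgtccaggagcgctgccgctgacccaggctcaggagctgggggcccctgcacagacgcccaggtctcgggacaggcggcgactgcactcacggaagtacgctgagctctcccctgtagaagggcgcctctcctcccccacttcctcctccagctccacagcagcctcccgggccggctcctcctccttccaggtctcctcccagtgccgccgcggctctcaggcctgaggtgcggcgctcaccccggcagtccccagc
ITGA2 promoter, chr5:52989102-52989361, plus strand: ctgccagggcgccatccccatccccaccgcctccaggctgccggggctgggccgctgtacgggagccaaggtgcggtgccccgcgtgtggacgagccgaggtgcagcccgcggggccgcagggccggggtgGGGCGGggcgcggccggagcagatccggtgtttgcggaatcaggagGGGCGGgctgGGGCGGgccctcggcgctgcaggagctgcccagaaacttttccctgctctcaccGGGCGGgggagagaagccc
ITGA5 promoter, chr12:54419257-54419516, minus strand: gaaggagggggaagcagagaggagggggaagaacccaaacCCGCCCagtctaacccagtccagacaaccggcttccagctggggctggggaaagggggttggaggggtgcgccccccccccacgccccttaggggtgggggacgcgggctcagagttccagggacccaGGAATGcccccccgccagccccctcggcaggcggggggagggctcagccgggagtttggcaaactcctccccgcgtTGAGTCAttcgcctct
MERTK promoter, chr2:111898357-111898616, plus strand: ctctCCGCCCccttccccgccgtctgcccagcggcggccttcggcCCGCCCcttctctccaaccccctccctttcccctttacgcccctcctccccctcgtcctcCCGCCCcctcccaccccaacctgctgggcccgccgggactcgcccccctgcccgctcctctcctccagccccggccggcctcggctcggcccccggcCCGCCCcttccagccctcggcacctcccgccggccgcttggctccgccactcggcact

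Motifs were searched on both strands over the 300 bases that the table gives, from 250 before to 50 after the start. They were GGGCGG (Sp and KLF factors), CCAAT (NF-Y), TGANTCA (AP-1), GGAATG (TEAD), CCGGAA (ETS), CACGTG (E-box) and TATAAA (the core promoter box). The ITGAV promoter held none of these 7. Those of ITGA2 and MERTK held GGGCGG alone, with 4 and 5 matches, 4 of which are in each printed run. That motif is in 45.0% of the 35116 promoters of the table. The ITGA5 promoter had 1 GGGCGG, 1 GGAATG and 1 TGANTCA, and the last runs from position -6 to position 1, where 1 is the start and -1 the base before it. TGANTCA is in 7.71% of all promoters and GGAATG in 14.0%. At its first start, ITGB1 had GGGCGG 3 times, GGAATG once and CCGGAA once, and CCGGAA is in 17.2% of all promoters. The 4 printed promoters were rich in G and C, with 70.7% for ITGAV, 72.7% for ITGA2, 69.3% for ITGA5 and 78.3% for MERTK, where the median of all promoters was 58.7%. The matches given here do not overlap each other, and they are letters in a window, not evidence of binding.

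More peaks were called at these loci in the retinal line than in the stem cells, and also more over the genome, since the ARPE-19 lists are longer. The 3 ARPE-19 libraries had 39, 42 and 53 peaks at the 7 loci, and the H7 libraries had 5, 14 and 5. As shares of their lists these are 0.0877%, 0.105% and 0.109% for ARPE-19 and 0.0326%, 0.102% and 0.0580% for H7, so that H7 replicate 2 lies within the ARPE-19 range and the other two H7 libraries lie below it. At 6 of the 7 loci, all but ITGB1, every ARPE-19 library had more peaks than every H7 library (exact two-sided permutation p = 0.1 at each, 0.117 after Benjamini-Hochberg adjustment over the 7 loci). With 3 libraries against 3, 0.1 is the smallest p this test can give. Over the genome the same was true of 54.1% of 12749 autosomal windows of 200 kb that hold a peak, so such a difference was common everywhere. The reverse, every H7 library above every ARPE-19 library, occurred at 0 of the 7 loci and in 2.02% of the windows.

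The lists differ in length and in depth. The ARPE-19 lists hold 40110 to 48460 peaks and the H7 lists 8622 to 15351. The background that the peak caller used for the whole genome, taken here as relative depth, was lower in ARPE-19. It was 0.425 to 0.483 expected reads in ARPE-19 against 0.592 to 0.653 in H7. At that background a peak needed 4 reads at its summit in ARPE-19 and 5 to 6 in H7, so a missing peak means that a region was not called at this depth. When the 8622 strongest peaks of every library were kept, the 7 loci together had 8, 8 and 8 peaks in ARPE-19 and 2, 9 and 5 in H7. That number is the whole list of H7 replicate 3 but only a part of each ARPE-19 list. The cut was therefore much stricter for ARPE-19, and it can drop an ARPE-19 peak while keeping a weaker H7 peak. No locus then had every ARPE-19 library above every H7 library, where 14.6% of the 10355 windows that still held a peak did. Windows left without a peak drop out of that share, while loci without a peak stay among the 7. With peaks of a -log10 q of 5 or more instead, 62.2% of the 11507 windows with such a peak had every ARPE-19 library above every H7 library. The same held at 5 loci. MERTK, with 0, 1 and 1 peaks in ARPE-19 and none in H7, and ITGA6, with 2, 1 and 1 against 0, 1 and 0, were then no longer among them, and ITGB1 was. Covered bases were then apart at 6 loci, all but MERTK, and in 68.8% of those 11507 windows. With the 8622 strongest peaks, at ITGAV the counts became 4, 4 and 5 in ARPE-19 and 1, 4 and 1 in H7, and at ITGB5 and MERTK no library kept a peak.

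**Figure D1:**
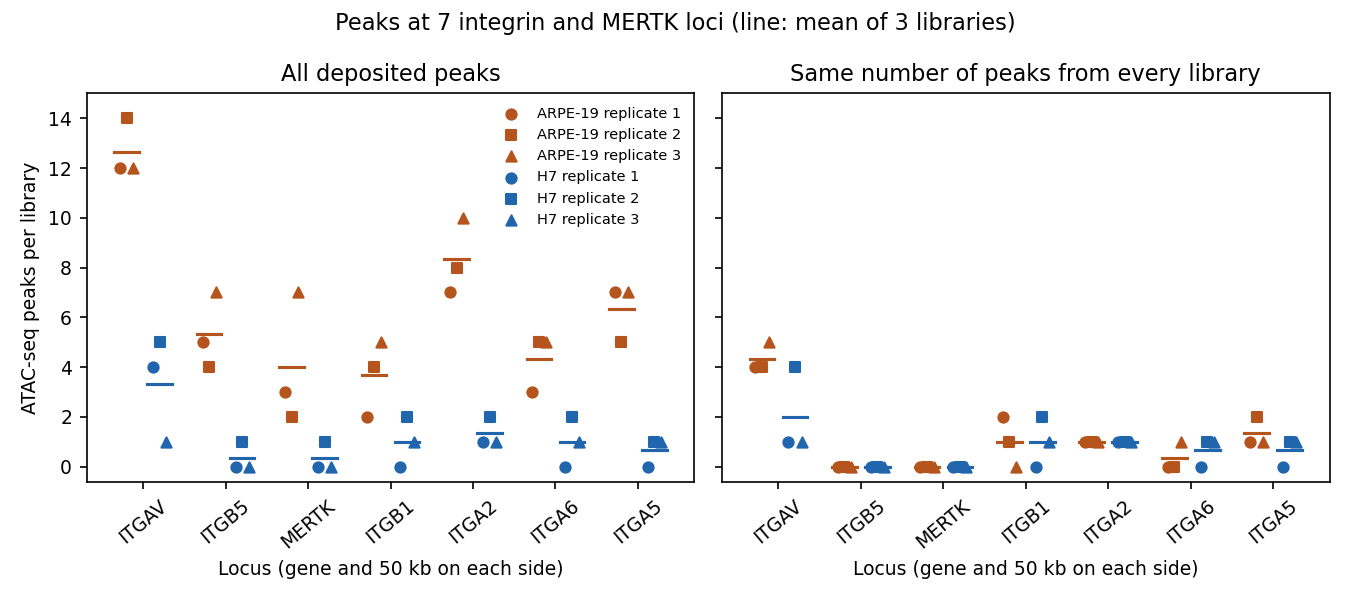
Peaks per library (vertical axis) at each of the 7 loci, with all deposited peaks on the left and the 8622 strongest of every library on the right; each point is a library and each line the mean of 3. On the left the ARPE-19 points lie above the H7 points at every locus but ITGB1, and on the right they overlap or are equal at every locus.

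ITGAV, the alpha subunit that pairs with the ITGB5 product, had the highest mean number of peaks of the 7 loci in both lines. Its window of 190.8 kb (gene at chr2:187454790-187545629, plus strand) held 12, 14 and 12 peaks in ARPE-19 (mean 12.7 ± 1.15, SD, n = 3) and 4, 5 and 1 in H7 (3.33 ± 2.08). All 3 ARPE-19 counts were above all those of the other 6 loci. In H7 replicate 3 the count of 1 at ITGAV was equalled at ITGB1, ITGA2, ITGA6 and ITGA5. In the genome, 0.298% of the windows of 200 kb had at least 12 peaks in every ARPE-19 library. The limit of 12 was set from the lowest ARPE-19 count at ITGAV itself, so this share is a description and no test. Those windows lie on a fixed grid and count peaks by their midpoint, while the ITGAV window is placed on the gene. The peaks covered 3631, 4257 and 4693 bases in ARPE-19 and 706, 1221 and 282 in H7, groups that do not overlap. Of 17 merged regions here, 11 were called in all 3 ARPE-19 libraries, 6 of them before the gene, 4 within it and 1 past its end. Over the genome, 26659 of the 84659 merged regions were called in all 3 ARPE-19 libraries.

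The region over the ITGAV start, chr2:187454518-187454971, was called in 5 of 6 libraries. It had 24, 14 and 30 reads at the summit in ARPE-19, 12 and 11 in H7 replicates 2 and 3, and no peak in H7 replicate 1. Each ARPE-19 count is above both H7 counts. Divided by each library's background, the mean height was 50.3 in the 3 ARPE-19 libraries and 18.8 in the 2 H7 libraries with a peak. The ITGAV region with the highest rank in ARPE-19 was not the start. It lay 14.4 kb before the gene, at chr2:187439998-187440381, with 31, 29 and 35 summit reads in ARPE-19 and no H7 peak, and on average it ranked at the 94.9th percentile. Upstream there were 4 more regions with peaks in ARPE-19 alone, from 18.9 kb to 38.0 kb before the gene. The most distant upstream region, 45.3 kb away, also had a peak in H7 replicate 2, with 9 reads against 23, 22 and 36. Which gene these upstream regions belong to was not analysed; on GRCh38 the named protein-coding gene before ITGAV is ZC3H15 and the one past its end is FAM171B. Inside the gene, a region 15.2 kb from the start had 24, 17 and 24 reads in ARPE-19 and no H7 peak. One 51.9 kb from the start, with 12, 12 and 15 reads, also had 9 reads in H7 replicate 2. A region 12.9 kb past the gene end, on the side of FAM171B, had 14, 10 and 20 reads in ARPE-19 and 13 and 12 in H7 replicates 1 and 2, with overlapping counts. Whether it lies over the FAM171B start was not examined, because that gene was not placed on hg19.

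ITGB5, the beta partner of ITGAV in the receptor for outer segments, had its peaks inside the gene. Its window (gene at chr3:124481795-124606144, minus strand) held 5, 4 and 7 peaks in ARPE-19 (5.33 ± 1.53, SD, n = 3) and 0, 1 and 0 in H7 (0.333 ± 0.577). Of its 9 regions 8 lay within the gene, and 3 of these had a peak in each ARPE-19 replicate and none in H7. The one with the highest rank, 41.7 kb into the gene at chr3:124564327-124564611, had 12, 8 and 14 summit reads and stood at the 57.4th percentile. The other two had 11, 11 and 9 reads, 74.3 kb into the gene, and 11, 9 and 9 reads, 8.39 kb into it. These are modest peaks, near or below the middle of the lists. Near the start a single ARPE-19 library, replicate 3, had a peak of 9 reads, 65 bases before the gene. H7 had 1 peak at this locus, with 6 reads in replicate 2, and it overlapped no ARPE-19 peak. RefSeq lists a longer gene on GRCh38, of 139471 bases against the 124350 used here. It gives more than 1 start there, at chr3:124901418, 124887684 and 124887365, and these were not placed on hg19. In the 50 kb before the gene, the region 65 bases away was the only one with a peak in any library.

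MERTK, the kinase that drives ingestion, had weak peaks in the retinal line and, per 100 kb, the fewest of the 7 loci. The window (gene at chr2:112656191-112787138, plus strand) held 3, 2 and 7 peaks in ARPE-19 (4 ± 2.65, SD, n = 3) and 0, 1 and 0 in H7 (0.333 ± 0.577). Autosomal windows of 200 kb that hold a peak had means of 3.38, 3.05 and 3.68 peaks in the 3 ARPE-19 libraries. Beside these, the mean of 4 in this window of 230.9 kb was not low. At MERTK, ARPE-19 replicate 3, the longest list, stands above the other 2. Without it the difference between the lines would be 2.17 peaks, where it is 3.67 with all libraries. Only 1 of 9 regions was called in all 3 ARPE-19 libraries, where 26659 of 84659 were over the genome. It lay 48.2 kb into the gene at chr2:112704279-112704503, with 6, 8 and 6 summit reads and at the 23.1th percentile of the lists. No library had a peak within 1 kb of the MERTK start, and the nearest in ARPE-19 lay 14.1, 48.1 and 21.7 kb from it in replicates 1, 2 and 3. In H7 the nearest peak was 747.0, 150.3 and 685.8 kb away. Open chromatin at the MERTK start was thus not detectable at this depth in either line. Past the gene end lie 5 weak regions of 5 to 10 reads, each called in 1 ARPE-19 library and 1 of them also in H7 replicate 2, and TMEM87B is the next named gene on that side on GRCh38.

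**Figure D2:**
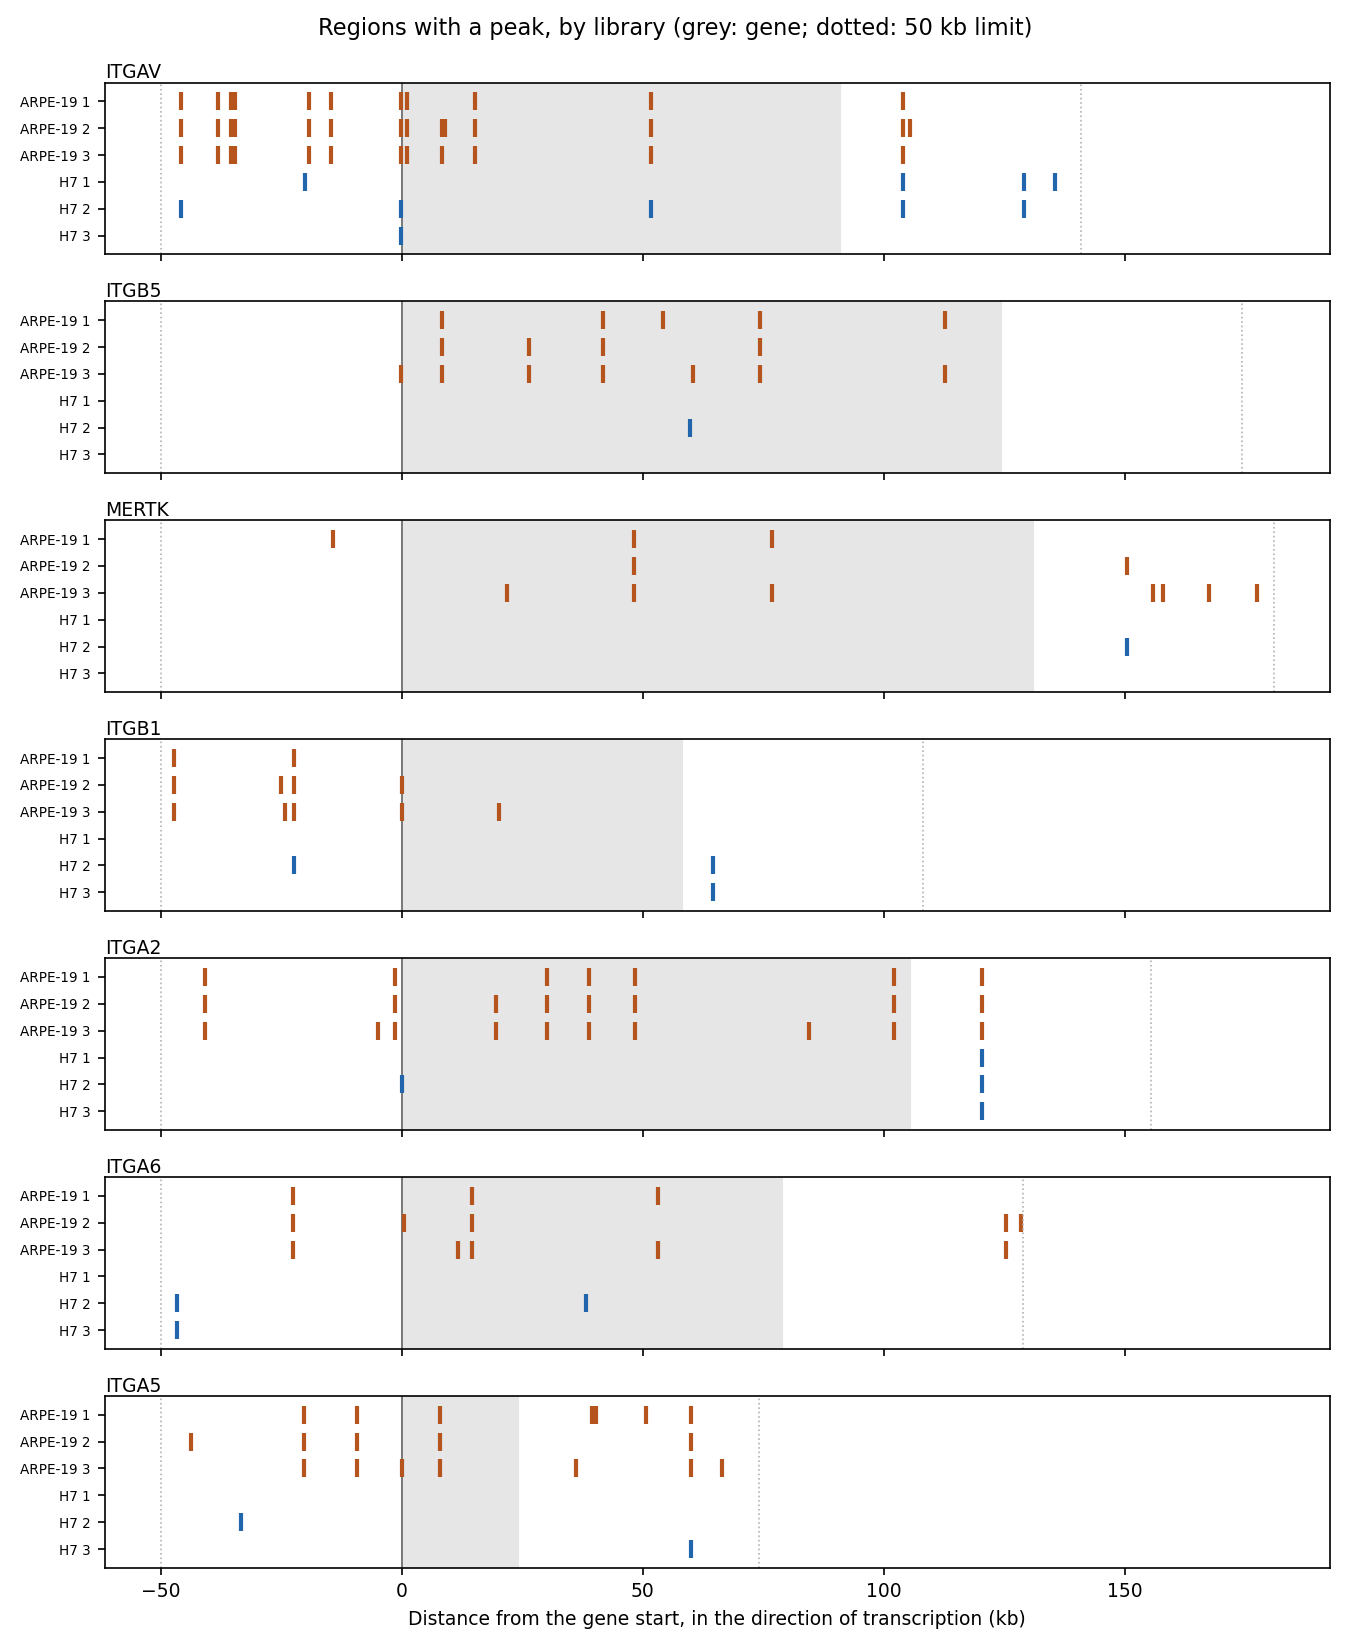
Regions with a peak (ticks) in each of the 6 libraries (rows) at the 7 loci, by distance from the gene start in kb along the direction of transcription; grey marks the gene and dotted lines the limits of 50 kb. ITGAV has 11 of 17 regions in all 3 ARPE-19 libraries and a start called in both lines, while MERTK has 1 of 9 and none at its start.

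ITGB1, the beta subunit common to the receptors for collagen, fibronectin and laminin, was the locus where the lines overlapped in peak number. The window (gene at chr10:33189246-33247293, minus strand) held 2, 4 and 5 peaks in ARPE-19 (3.67 ± 1.53, SD, n = 3) and 0, 2 and 1 in H7 (1 ± 1), and the exact permutation test gave p = 0.2. The bases covered did not overlap, with 959, 1301 and 1582 against 0, 453 and 224 (exact permutation p = 0.1). ITGB1 peaks over or next to the start, chr10:33247069-33247458, were called in ARPE-19 replicates 2 and 3, with 11 and 12 reads, and not in replicate 1 or in H7. The region with the highest rank lay 22.2 kb before the gene, at chr10:33269449-33269817, on the side of the gene NRP1. It had 27, 27 and 24 reads in ARPE-19, close to each other, and 9 reads in H7 replicate 2. Another region, 46.8 kb before the gene, had 21, 15 and 17 reads in ARPE-19 and no H7 peak. Past the gene end, 6.48 kb away at chr10:33182494-33182768, H7 replicates 2 and 3 had 12 and 10 reads where no ARPE-19 library had a peak.

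ITGA2, the alpha subunit of a collagen receptor, came second to ITGAV. The window (gene at chr5:52285156-52390610, plus strand) held 7, 8 and 10 peaks in ARPE-19 (8.33 ± 1.53, SD, n = 3) and 1, 2 and 1 in H7 (1.33 ± 0.577). Its ARPE-19 counts touch those of ITGA5, so the order of these loci is not clear of the spread. Within the gene 4 regions were called in all 3 ARPE-19 libraries and in none of H7, the highest in rank 48.4 kb from the start at chr5:52333308-52333961 with 22, 17 and 22 reads. Another, 38.7 kb from the start, had 12, 11 and 15 reads, and the one near the gene end, 102.2 kb from the start, had 11, 11 and 14. A weak region 40.6 kb before the gene, on the side of the related gene ITGA1, had 9, 5 and 14 reads in ARPE-19 and no H7 peak. The start itself differed from this pattern. The only peak over it was that of H7 replicate 2, at chr5:52285037-52285365 with 11 reads, whereas the ARPE-19 libraries had a region that ends 995 bases before the start, at chr5:52283566-52284161, with 13, 11 and 15 reads.

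The ITGA2 window also holds the one region of the 74 that was called in all 6 libraries, 1.35% where the genome has 1.82%. It lies 14.4 kb past the gene end at chr5:52405047-52405958, and the next named gene on that side on GRCh38 is MOCS2. Neighbouring genes were not placed on hg19, so whether this region lies over the MOCS2 start was not examined. The summit of the region had 15, 14 and 11 reads in ARPE-19 and 14, 7 and 11 in H7, which overlap. Divided by the background of each library, the height was 29.2 ± 2.87 (SD, n = 3) in ARPE-19 against 16.9 ± 4.82 in H7 (exact permutation p = 0.1), a ratio of 1.73. This test was not planned, and 0.1 is the smallest p it can give. By this measure 84.6% of the regions called in both lines over the genome were higher in ARPE-19.

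ITGA6, the alpha subunit of laminin receptors, had few regions in all 3 libraries of either line. The window (gene at chr2:173292314-173371181, plus strand) held 3, 5 and 5 peaks in ARPE-19 (4.33 ± 1.15, SD, n = 3) and 0, 2 and 1 in H7 (1 ± 1). The region with the highest rank lay 14.6 kb into the gene, at chr2:173306740-173307257, with 15, 11 and 22 reads in ARPE-19 and no H7 peak. A weaker one, 22.4 kb before the gene, had 8, 5 and 8 reads in ARPE-19 alone. Near the start, 277 bases inside the gene, ARPE-19 replicate 2 alone had a peak of 5 reads. The strongest H7 signal was 46.5 kb before the gene at chr2:173245580-173245854, on the side of DLX2, with 13 and 10 reads in replicates 2 and 3 and no ARPE-19 peak. At equal list length the counts were 0, 0 and 1 in ARPE-19 (mean 0.333) and 0, 1 and 1 in H7 (mean 0.667). These overlap, so they show no direction at this locus.

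ITGA5, the alpha subunit of the main fibronectin receptor, held the strongest peak of all 7 loci. The window of 124.2 kb is the shortest (gene at chr12:54789045-54813244, minus strand), and it held 7, 5 and 7 peaks in ARPE-19 (6.33 ± 1.15, SD, n = 3) and 0, 1 and 1 in H7 (0.667 ± 0.577). The strongest region lay inside the gene, 7.92 kb from its start, at chr12:54805138-54805589. It had 43, 37 and 54 summit reads in ARPE-19 and no H7 peak, and on average it ranked at the 98.8th percentile. Its height was 99.0 ± 24.7 times the library background (SD, n = 3). The ITGA5 start, by contrast, had a single peak of 9 reads in ARPE-19 replicate 3. Before the gene there were weaker regions at 9.17 kb, with 10, 10 and 10 reads, and at 20038 bases, with 7, 7 and 8 reads, both in ARPE-19 alone. On the other side, 35.6 kb past the gene end, a region had 12, 20 and 17 reads in ARPE-19 and 14 in H7 replicate 3. The 4 other ARPE-19 peaks between the gene end and that region were each called in 1 library.

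**Figure D3:**
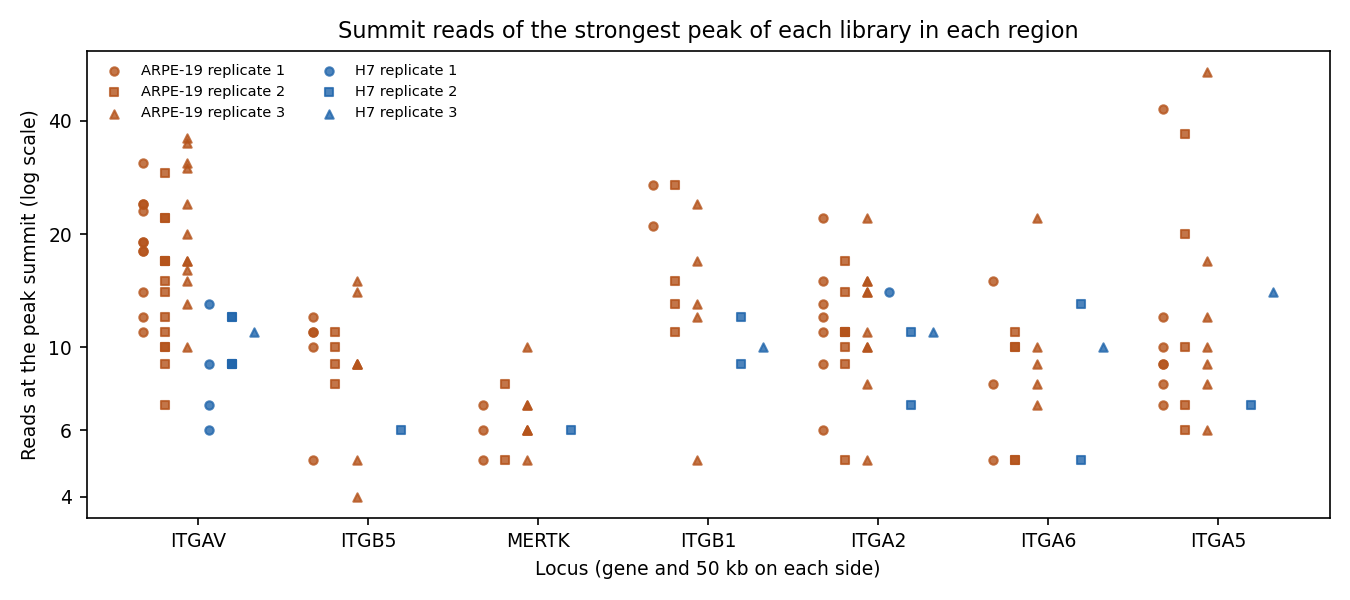
Reads at the summit (vertical axis, log scale) of each library's strongest peak in each region, by locus; a point is a peak in a library. The highest points are those of the ITGA5 region inside the gene, at 43, 37 and 54 reads, and all MERTK points lie between 5 and 10.

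The loci differ in length, so peaks per 100 kb set them side by side. In ARPE-19 the mean was 6.64 per 100 kb at ITGAV, 5.10 at ITGA5, 4.06 at ITGA2, 2.42 at ITGA6, 2.38 at ITGB5, 2.32 at ITGB1 and 1.73 at MERTK. In H7 it was 1.75 at ITGAV and between 0.144 and 0.649 at the other 6 loci. For the genome, autosomal windows of 200 kb that hold a peak had means of 3.38, 3.05 and 3.68 peaks per window in ARPE-19. In H7 these means were 1.15, 1.03 and 0.651 per window of 200 kb. By number of peaks the ARPE-19 order was ITGAV, ITGA2, ITGA5, ITGB5, ITGA6, MERTK and ITGB1, and ITGAV and ITGA2 are the only neighbours in it whose 3 ARPE-19 libraries do not overlap. The difference between the lines was 9.33 peaks at ITGAV (SE 1.37), 7 at ITGA2 (SE 0.943), 5.67 at ITGA5 (SE 0.745) and 5 at ITGB5 (SE 0.943). It was smaller at MERTK, with 3.67 (SE 1.56), at ITGA6, with 3.33 (SE 0.882), and at ITGB1, with 2.67 (SE 1.05).

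Covered length set the lines apart at all 7 loci in the full lists (exact permutation p = 0.1 at each, adjusted p = 0.1), as in 64.8% of the genome windows. With the 8622 strongest peaks of every library this held at 2 loci, ITGAV and ITGA5, and in 25.9% of the 10355 windows that still held a peak. At ITGA2 the peaks covered 2481, 2375 and 3774 bases in ARPE-19 and 154, 498 and 152 in H7. At ITGA5 they covered 1892, 1522 and 1883 bases against 0, 275 and 191. MERTK had the least, with 650, 424 and 1301 bases in ARPE-19 and 0, 201 and 0 in H7. In summit reads the peaks at the 7 loci were close to the rest of their lists. The median summit had 12, 11 and 11 reads in the ARPE-19 libraries and 9, 9 and 11 in the H7 libraries, where the whole lists had 11, 10 and 11 and 9, 9 and 10. By -log10 q their median percentile was 49.9, 46.6 and 38.5 in ARPE-19 and 29.4, 52.1 and 41.5 in H7. That is below the middle of the list in every library but H7 replicate 2, barely so in ARPE-19 replicate 1.

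At ITGAV the region of highest rank in ARPE-19 was not the one at the gene start. At the other loci no region over the start was called in all 3 ARPE-19 libraries. Rank was compared only among regions called in all 3, so those starts could not come first. Of the ARPE-19 libraries, all 3 had a peak within 1 kb of the start at ITGAV alone, at least 2 did at ITGAV and ITGB1, and at least 1 did at 6 loci, one of which is ITGA2 with a peak 995 bases away. Counting only peaks over the start itself, the last number was 3. In H7 it was found in at least 1 library at ITGAV and ITGA2, in at least 2 at ITGAV, and in all 3 at no locus. ARPE-19 replicate 3 carried many of these calls, and without it 3 starts had a peak in any ARPE-19 library. Regions shared by the 3 ARPE-19 replicates were as dense inside the genes, with 14 in 612.7 kb or 2.28 per 100 kb, as in the flanks, with 16 in 700 kb or 2.29 per 100 kb. Whether those in genes are exonic or intronic was not analysed, because gene models of hg19 were not used here.

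The ARPE-19-only regions, called in each ARPE-19 replicate and in no H7 replicate, were 23 of the 74, a share of 31.1% beside 26.0% over all merged regions of the genome. They numbered 7 at ITGAV, 6 at ITGA2, 3 each at ITGB5 and ITGA5, 2 at ITGA6, and 1 each at MERTK and ITGB1. By position 12 were inside the genes and 11 before them, and 0 lay past a gene end. Their median width was 387 bases and their median rank the 57.4th percentile, where ARPE-19-only regions of the genome had 429 bases and the 64.8th percentile. The range of rank was wide, from 20.4 for the second region at ITGAV, 1.02 kb into the gene, to 98.8 at ITGA5. The 3 ARPE-19 replicates shared 30 of the 74 regions, beside 26659 of 84659 over the genome. Of these 30, 7 also had an H7 peak, 23.3% beside 17.3% over the genome. At least 2 ARPE-19 libraries shared 38 regions (51.4%, genome 46.9%), and at least 2 H7 libraries shared 6 (8.11%, genome 9.57%), of which 3 were at ITGAV. Regions called in a single library made up 32 of the 74 (43.2%, genome 46.4%), 15 of them in ARPE-19 replicate 3.

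No region at the 7 loci had a peak in 3 of 3 H7 and in 0 of 3 ARPE-19 libraries, where 1.82% of all merged regions did. H7 peaks were found in 17 regions, 9 of them without an ARPE-19 peak. Of these 9, 6 were called in 1 H7 library only. The genome share of such regions was not computed, so these counts only describe the loci. Those called in 2 H7 libraries and no ARPE-19 library were 3, or 4.05% beside 5.18% over the genome, and none was at the start of 1 of the 7 genes. They are the regions given above for ITGB1 and ITGA6 and one 38.1 kb past the end of ITGAV, with 9 reads in H7 replicates 1 and 2. H7 replicate 2 gave 14 of the 24 H7 peaks at the loci, although replicate 1 has the longer list. In the 8 regions called in both lines the height over the library background was on average higher in ARPE-19 in all 8, and the same held for 84.6% of the 7203 such regions in the genome.

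The regions next to the limit of 50 kb varied by locus. The outermost region inside it was at ITGA6, 49.5 kb past the gene end and called in 1 ARPE-19 library, and the nearest outside it was at ITGAV, 53.9 kb before the gene and also called in 1 ARPE-19 library. At ITGAV the outermost region inside was called in 3 ARPE-19 libraries and 1 H7 library. At ITGB5 the outermost inside was called in 1 ARPE-19 library and the nearest outside, 61.6 kb away, in 3. At MERTK it was 1 inside and 2 outside, 63.1 kb away.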

How the data were processed

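ATAC-seq peak lists of 6 libraries were used. The 6 samples of 4C, which maps contacts of one locus, are not analysed here. MACS2, bedtools and build hg19 are named, without versions, per the submitters' processing notes; the aligner, read filters and any Tn5 shift are not given in the sources used here. Each sample has a list of its own, per the labels. The deposited score is 10 times the -log10 q, cut to a whole number. The deposited fold is the ratio of summit to local background, while -log10 p and -log10 q, also deposited, are the result of the caller's test within a library; all are the authors' values per peak.

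Peaks sharing at least 1 base were merged over the genome. Whole summit reads and the local background were solved from each deposited fold and -log10 p, taking a pseudocount of 1 and a Poisson test, and they met the p within 0.001 for 100% of nuclear peaks. The commonest background was taken as relative depth. This was not checked against read totals, and the heights divided by it rest on it. Reads may include duplicates, so read numbers carry counting error at least. Peak numbers and covered bases were compared by the exact two-sided permutation test. The gene strand and neighbours came from RefSeq tables on GRCh38; hg19 gene models or sequence were not used, so the planned marker and pathway lists were not run. Every region was placed by its distance to the gene. At each locus the region nearest the start and the region of highest mean rank of -log10 q, among those called in all 3 replicates of a line, were named, together with further regions picked after their values were seen. Members and lists were chosen with earlier results of these data known. On simulated lists of 20000 regions, 100% of 200 planted regions of each line were recovered, as were the reads of 100% of 2000 simulated peaks. The planted regions had a peak in every library of 1 line and in none of the other. The simulated peaks followed the same formula that was solved. These runs therefore check the code alone and say nothing on false calls. Tests ran in scipy 1.17.1 under Python 3.11.15, tables in pandas 2.3.3 and numpy 2.4.6, and figures in matplotlib 3.10.9.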

Additional observations from a re-analysis of the deposited data

How the results depend on the processing

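With the 8622 strongest peaks of every library, which shortens 5 of the 6 lists, the ARPE-19 minus H7 difference in peaks was 0 at ITGB5, MERTK, ITGB1 and ITGA2 and -0.333 at ITGA6, where it was 3.33. The difference in covered bases became 0 at ITGB5 and MERTK and -7 at ITGA6. No locus (0) then had all ARPE-19 libraries above all H7 libraries, and 20 merged regions were left, with 5 ARPE-19-only and 0 in all libraries; 1 start had a peak in at least 1 and 1 in at least 2 ARPE-19 libraries. A stricter -log10 q, 5 or more, cut the difference at MERTK from 3.67 to 0.667 peaks (exact permutation p = 0.4) and at ITGA6 from 3.33 to 1 (p = 0.3), so that 5 loci were apart in place of 6. It left 39 merged regions, 0 in all libraries, 3 starts with an ARPE-19 peak, and 0 with a peak in at least 1 or in at least 2 H7 libraries (0). When a peak had to cover 50% of its region, 0 were in all libraries. For peaks over the start itself the numbers were 3 and 1 for at least 1 and 2 ARPE-19 libraries and 0 for 2 H7 libraries. With the genes alone there were 33 merged regions, 12 ARPE-19-only and 0 in all libraries, by construction; with 100 kb on each side, 1 was H7-only and 3 were in all libraries. Where no construction is named the cause was not tested.

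Leaving out each library in turn, H7-only regions ranged from 0 to 2 (2 without H7 replicate 1) and regions in all libraries from 1 to 2. Starts with a peak ranged from 3 to 6 for at least 1 ARPE-19 library, from 1 to 2 for at least 2, from 1 to 2 for at least 1 H7 library, and from 0 to 1 for at least 2, being 0 without H7 replicate 2 or 3. The difference in peaks stayed above 0 at each locus, at 2.17 to 4.67 for MERTK.

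Of the alternatives, 79 of 84 for peak numbers and 81 of 84 for covered bases kept the sign of the difference, which is all that was compared. The replicate block is among them and keeps the difference by construction. No p could fall below 0.1, and no p entered these counts. A lost separation such as that at MERTK does not show in them. Replicates of the same number did not vary together (correlations -0.013, -0.011 and 0.038), so the replicate block, with a difference of 9.33 peaks at ITGAV and a smallest p of 0.25, pairs libraries by number alone. Depth limits what a missing peak means: H7 needed more reads at a summit than ARPE-19. Each line has 3 libraries.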
